A study of Mus musculus with 15 samples.

Results

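Binding of Ago2 and Sfpq was described for 8 genes of the Nodal and activin pathway in P19 cells, a mouse embryonal carcinoma line. The genes were the ligand Nodal, its antagonists Lefty1 and Lefty2, the receptors Acvr1b, Acvr2b and Tgfbr1, the transducer Smad2 and the nuclear repressor Skil. Every CLIP peak whose gene symbol was 1 of these was taken, which gave 212 of the 75980 peaks in 5 full lists, or 223 of 79976 once the lists of dismissed peaks, which repeat part of them, were counted as well. These are 8 of the 10668 gene symbols that had at least 1 peak in the 5 full lists.

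Nodal and activin bind serine/threonine kinase receptors on the cell surface, where a type II receptor such as Acvr2b recruits and phosphorylates a type I receptor such as Acvr1b. The type I receptor then phosphorylates Smad2, which enters the nucleus with Smad4 and switches on targets that include Nodal, Lefty1 and Lefty2, so that the ligand feeds its own expression while the secreted Lefty proteins block it. Skil (SnoN) represses Smad complexes on DNA, and Tgfbr1 is the type I receptor for TGF-beta. The pathway patterns mesoderm and endoderm in the early embryo, and in zebrafish embryos microRNAs are known to tune its dose.

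Argonaute 2 (Ago2) is the protein that carries a microRNA to its target, and Sfpq is an RNA-binding protein of nuclear paraspeckles whose part in microRNA targeting the study examined. Both were crosslinked to RNA, immunoprecipitated and sequenced (HITS-CLIP). Among the samples used here Ago2 was profiled in 3 groups, in cells given a let-7a mimic with control siRNA (siCtr), in cells given siRNA against Sfpq (siSfpq) with a control mimic (mimic Ctr), and in cells given siSfpq with the let-7a mimic. Sfpq was profiled in cells with siCtr and in cells with siSfpq. Each of the 5 groups had 3 libraries, 15 in all. All groups came from 1 cell line after transient transfection, and the mimic adds let-7a to cells in which that microRNA is scarce, so that the let-7a groups model a raised dose of it.

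The 5 lists answered different questions, and the authors had merged the replicates before calling peaks, so that no value per library and no spread between replicates could be given. The Ago2-let-7a list (4202 peaks) holds Ago2 binding gained with the mimic over control cells. Ago2 libraries of control cells were not among the 15. The control Ago2 list (2065 peaks) holds Ago2 binding without the mimic, from an earlier experiment whose libraries were not analysed here. The Sfpq list (29715 peaks) holds Sfpq binding that fell with siSfpq. The recruited let-7a list (10264 peaks) holds Ago2 binding that was higher with siSfpq and let-7a than with siCtr and let-7a. The siSfpq Ago2 list (29734 peaks) holds Ago2 binding in siSfpq cells, and a peak in it is not by itself a gain. Peaks of the control and siSfpq Ago2 lists carry a read count, and those of the other 3 a score from the authors' comparison of conditions. Values were set against each other only within a list, by rank or percentile.

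An Ago2 peak was called dismissed where the authors had listed it as lost with siSfpq, and kept otherwise, which does not mean that it was unchanged. For Ago2-let-7a peaks their methods also required no change between siSfpq and siCtr cells without the mimic. They classed a dismissed peak as close where an Sfpq peak lay within 500 nt. How many transcripts each gene had in the cells was not measured in these lists, so that less binding per transcript and fewer transcripts cannot be told apart, nor can fewer cells of a type and less RNA per cell. All 10 markers of P19 and other pluripotent cells that were looked up, such as Pou5f1, Sox2 and Lin28a, had a peak in at least 1 list. Of 8 markers of neurons, endoderm and mesoderm, 5 had a peak too, namely all 3 neuronal ones (Tubb3, Map2 and Rbfox3, in Ago2 lists only), Gata6 with an Ago2-let-7a peak of score 16 in its 3′UTR, and T with 7 Sfpq and 5 siSfpq Ago2 peaks, whereas Gata4, Sox17 and Mesp1 had none. A listed peak thus did not single out pluripotent cells.

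The sequences on which the microRNA results turn are the mature strands of let-7a and of the miR-302 and miR-290 clusters, which are typical of pluripotent mouse cells. All are from RefSeq on GRCm38, with the seed (bases 2 to 8) in capitals, and the last 3 share 1 seed, AAGUGCU.
let-7a-5p: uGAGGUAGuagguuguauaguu
miR-302b-3p: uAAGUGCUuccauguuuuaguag
miR-291a-3p: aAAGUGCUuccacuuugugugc
miR-294-3p: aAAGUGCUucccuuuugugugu

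Their shortest matches, TACCTC for let-7 and GCACTT for the miR-302 and miR-290 seed, were searched on the transcribed strand of each gene's longest RefSeq 3′UTR (GRCm38). Of 20066 3′UTRs, 23.2% held TACCTC and 28.6% held GCACTT, and among the 1493 of at least 4000 nt the shares were 68.7% and 80.6%. The 8 genes held 15 TACCTC words in 5 genes and 12 GCACTT words in 7 genes. Longer matches were rarer, with CTACCTCA in 3.29% and AGCACTTA in 3.13% of all 3′UTRs. The sites below are those in or beside the peaks described next, as DNA, 5′ to 3′, with the 6-nt match in capitals.
Tgfbr1 chr4:47410844-47410849: aggaggctggttgttcTACCTCa
Skil chr3:31122353-31122358: acacaaaactgtcctcTACCTCa
Skil chr3:31122478-31122483: ctgtgctcttggcttaTACCTCa
Tgfbr1 chr4:47411120-47411125: tgtggcactaaatgaaGCACTTc
Lefty1 chr1:180938214-180938219: ctgcactgtatgcgaaGCACTTa
Lefty2 chr1:180897918-180897923: ccatcacccagtttaaGCACTTa
Nodal chr10:61425232-61425237: ttgaccagagaggtggGCACTTg
Skil chr3:31119660-31119665: gggaagggcagcctttGCACTTt

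Across the pathway, Sfpq and Ago2 were spread very unequally. The Sfpq list held 89 peaks of the 8 genes, of which 31 were on Skil, 18 on Tgfbr1, 16 on Smad2 and 12 on Acvr2b. The Ago2-let-7a list held 16 peaks, of which 7 were on Skil and 5 on Acvr1b. The control Ago2 list held 8, of which 4 were on Skil, 3 on Lefty1 and 1 on Acvr1b. Skil carried peaks in every list and had the highest count of the 8 genes in each by symbol, and Lefty2, the close relative of Lefty1, had none in the Ago2-let-7a, control Ago2 and Sfpq lists. By number of genes, 5 of the 8 had an Ago2-let-7a peak (23% of all 10668 symbols did), 3 a control Ago2 peak (9.83%), 7 an Sfpq peak (46.4%), 7 a recruited let-7a peak (29.8%) and 8 a siSfpq Ago2 peak (82.7%).

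**Figure D1:**
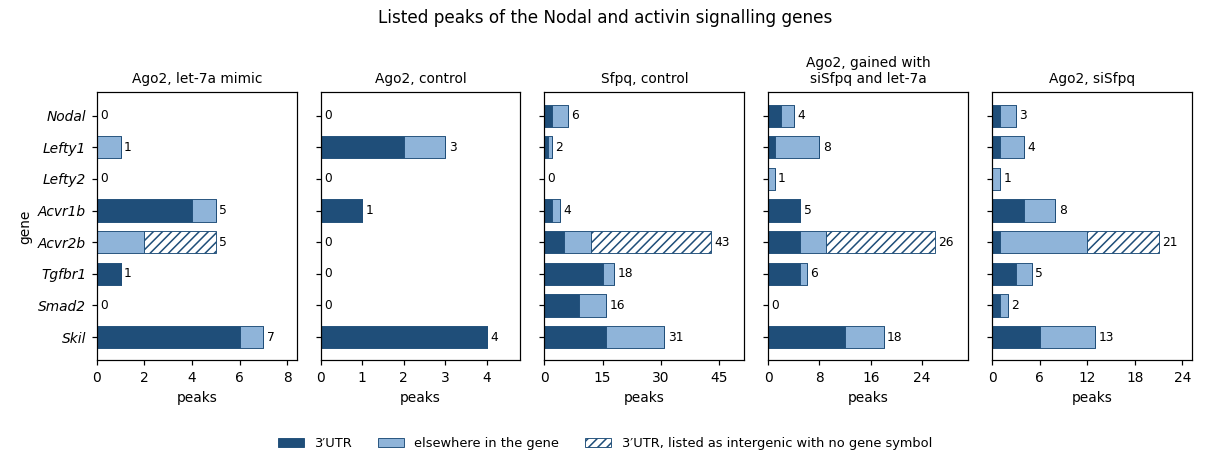
Number of listed peaks of each gene (x axis) by gene (y axis) in the 5 lists, split by whether the peak lay in the RefSeq 3′UTR (dark), elsewhere in the gene (light) or in a 3′UTR stretch that the lists call intergenic and give no gene symbol (hatched). Skil had 31 Sfpq peaks, and most of the 43 Sfpq peaks within Acvr2b carried no gene symbol.

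Peaks of these genes lay in the 3′UTR more often than peaks in general. The lists labelled 68.8% of the members' Ago2-let-7a peaks as 3′UTR against 23.5% of all, 62.5% against 16.4% in the control Ago2 list, and 48.3% against 26.9% in the Sfpq list. In the recruited let-7a list the shares were closer, at 41.2% against 35.8%. Few genes set the Ago2 shares, since 6 of the 11 let-7a peaks labelled 3′UTR were on Skil and 4 on Acvr1b. Of the 5 control peaks with that label, 4 were on Skil. Median values were near those of all peaks for Sfpq (a score of 11 in both) and above them for the siSfpq Ago2 list (39 reads against 22).

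Nodal, the ligand itself, had no Ago2 peak in the let-7a or control lists. Its 6 Sfpq peaks comprised 4 in introns, with scores of 16, 11, 19 and 9, and 2 in the 702-nt 3′UTR, with scores of 10 and 22. Ago2 was nevertheless listed on the Nodal 3′UTR in Sfpq-depleted cells. Recruited let-7a peaks lay at chr10:61424760-61424984, with a score of 38 (percentile 95 of that list), at chr10:61425225-61425304 (16) and across the stop codon at chr10:61424525-61424659 (19). They covered 46.7% of the 3′UTR, where the median of genes with such a peak was 6.12%. The first of them touched both 3′UTR Sfpq peaks. The second held the GCACTT of Nodal printed above and no TACCTC was found in the Nodal 3′UTR. In the siSfpq Ago2 list a single peak of 602 reads, chr10:61424479-61425327, covered 98.4% of it, and 2 coding peaks had 69 and 77 reads.

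Lefty1, a secreted inhibitor of Nodal, had the highest Ago2 read count of the 8 genes without the mimic. Its control Ago2 peak chr1:180937977-180938387 spanned nearly all of the 426-nt 3′UTR with 58 reads and ranked 42 of 2065. A second listed peak, chr1:180938225-180938387 with 30 reads, lay inside it, so that the pair is not independent, and a coding peak had 12 reads. All 3 were kept. The mimic gave Lefty1 only 1 Ago2-let-7a peak, in coding sequence at chr1:180935210-180935284 with a score of 11, which was kept too. The 3′UTR held no TACCTC, and its GCACTT, extended to all 8 letters of AGCACTTA, lay within the 58-read control peak. Sfpq peaks were few, 1 in the 3′UTR at chr1:180938250-180938269 with a score of 30 and 1 in coding sequence with a score of 8.

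In Sfpq-depleted cells Lefty1 ranked near the top of both lists. Its recruited let-7a peak chr1:180938015-180938319 had a score of 156, rank 29 of 10264, and covered 71.6% of the 3′UTR. The siSfpq Ago2 peak chr1:180937610-180938397 had 2266 reads, rank 56 of 29734, and covered 99.1%. The other 7 recruited peaks lay upstream of the 3′UTR with scores of 15 to 45. The assignment of some coding peaks to Lefty1 is uncertain. Every 25-nt word of the recruited peaks chr1:180937650-180937679 and chr1:180937865-180937934 also occurred elsewhere in the genome, as did 22.9% of those of the 2266-read peak, which begins in coding sequence. None of the words of the recruited peak of score 156 or of the 58-read control peak did.

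Lefty2, the second antagonist, had 1 recruited let-7a peak, chr1:180897495-180897514 with a score of 17, and 1 siSfpq Ago2 peak of 14 reads, chr1:180897512-180897607. Both were in coding sequence, and 65.3% of the 25-nt words of the latter occurred elsewhere, so that their assignment to Lefty2 is uncertain. No peak of any list lay in its 1294-nt 3′UTR, although this 3′UTR also held all 8 letters of AGCACTTA. The match thus stood under an Ago2 peak in Lefty1 and outside one in Lefty2.

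Acvr1b, the type I receptor for Nodal and activin, was the gene with the most let-7a peaks listed as lost. All 5 of its Ago2-let-7a peaks were dismissed with siSfpq, 1 in coding sequence at chr15:101209105-101209159 with a score of 10 and 4 in the 3′UTR. The latter were chr15:101211410-101211619 (score 10), chr15:101211735-101211794 (9), chr15:101212160-101212244 (8) and chr15:101212445-101212474 (14). Their scores were ordinary, the highest at percentile 77.6 of that list. None of these 4 held TACCTC, although the 3′UTR held 4 such words.

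Sfpq was not listed beside these peaks. The lists class the 4 3′UTR peaks as close to Sfpq, but the nearest listed Sfpq peaks lay 1531, 1356, 906 and 676 nt away, near the 3′ end of the transcript at chr15:101213150-101213249 (score 11) and chr15:101213470-101213514 (score 8). Of all 1134 Ago2-let-7a peaks classed as dismissed and close, 310 (27.3%) lay 500 nt or more from a listed Sfpq peak, and 47 of 400 (11.8%) in 3′UTRs, so that these 4 are part of a wider mismatch between class and distance that was not resolved here. The control Ago2 peak chr15:101213397-101213616, with 16 reads, lay on the second of those Sfpq peaks and was kept.

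Acvr1b was not left free of Ago2 in siSfpq cells. It had 5 recruited let-7a peaks in the 3′UTR, with scores of 24, 12, 18, 14 and 25 in 5′ to 3′ order, of which 1 overlapped the start of a dismissed peak and another ended 6 nt before one. The siSfpq Ago2 list gave it 4 peaks there, covering 56.3% of the 3′UTR, with 101, 53, 46 and 104 reads, and 3 of the 4 dismissed peaks were touched by one of them.

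Tgfbr1, the type I receptor for TGF-beta, had 1 Ago2-let-7a peak, chr4:47410970-47411144 with a score of 15. It was dismissed and lay 66 nt from an Sfpq peak and 36 nt from a recruited let-7a peak. The peak held a GCACTT and no TACCTC. The only full let-7 match of Tgfbr1, CTACCTCA, lay upstream of it in the recruited peak chr4:47410770-47410934 (score 18), which was also bound by Sfpq at chr4:47410810-47410904 (score 11). Sfpq covered 43.4% of the 4149-nt 3′UTR in 15 peaks with scores of 8 to 21, and recruited let-7a peaks covered 11.3% in 5 peaks with scores of 12 to 18. In the siSfpq Ago2 list the largest peak, chr4:47410728-47411465 with 194 reads, covered the dismissed peak as well as the recruited one.

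**Figure D2:**
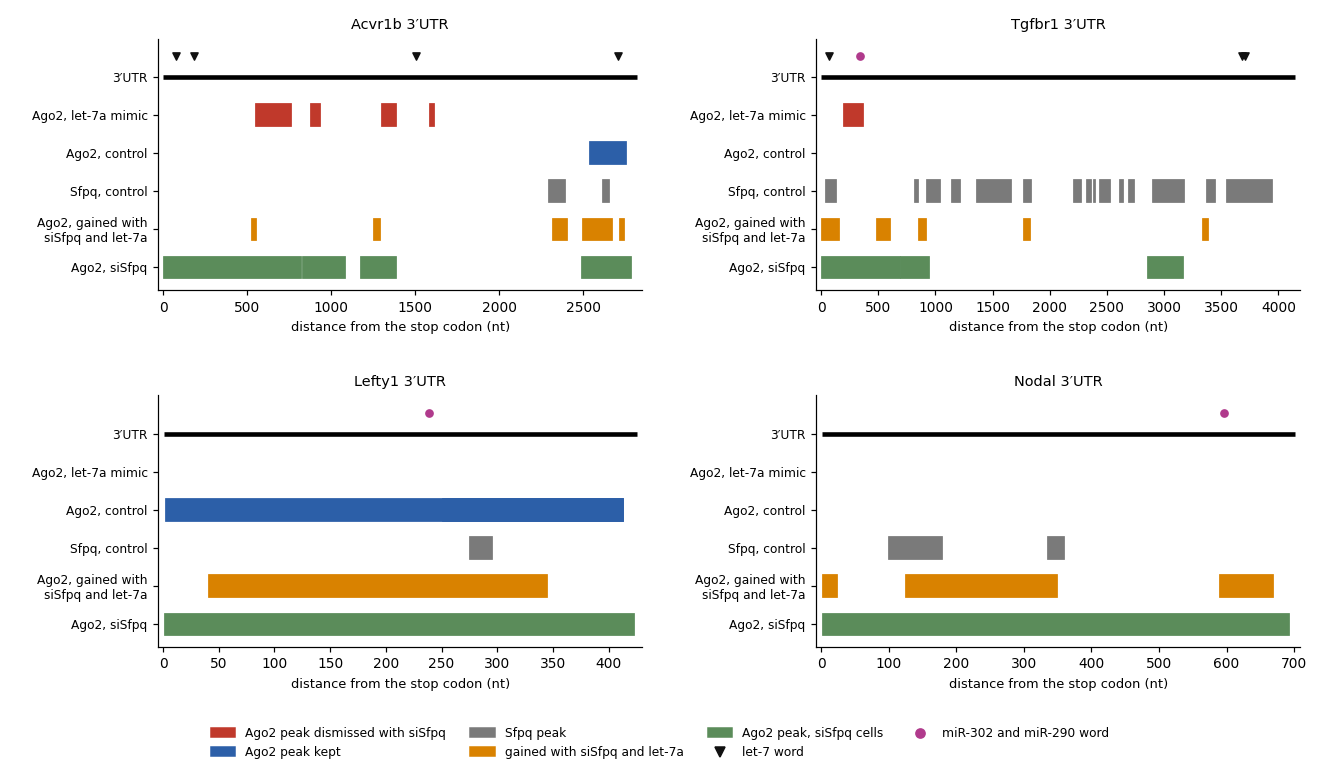
Listed peaks along the 3′UTRs of Acvr1b, Tgfbr1, Lefty1 and Nodal, by distance from the stop codon in nt (x axis) and list (rows), with matches to the let-7 and the shared miR-302 and miR-290 seed above. In Acvr1b the 4 dismissed peaks (red) lie upstream of both Sfpq peaks (grey), while in Lefty1 the kept control peaks (blue) span the match.

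Acvr2b, a type II receptor for Nodal and activin, had more Sfpq peaks in its 3′UTR than any other gene, most of them without its symbol. Its longest RefSeq 3′UTR, chr9:119433462-119442148, is 8687 nt long, and most peaks in it are listed as intergenic without a symbol. By symbol the gene had 12 Sfpq, 9 recruited let-7a and 12 siSfpq Ago2 peaks, and by overlap with the gene on its strand 43, 26 and 21. Over the whole Sfpq list, 13.7% of the peaks labelled intergenic lay in a RefSeq 3′UTR. With 36 Sfpq peaks the Acvr2b 3′UTR ranked 1 of 2634 genes, although its length counts in that rank and 43.2% of it was covered, percentile 92.8 of genes with a peak. Sfpq scores ran from 8 to 57 with a median of 15.5, and the highest was at chr9:119435105-119435159.

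Ago2 peaks of Acvr2b were few in the Ago2-let-7a list and absent from the control Ago2 list, but many were listed with siSfpq. The 2 Ago2-let-7a peaks listed under its symbol were intronic, chr9:119408485-119408579 (score 12) and chr9:119426420-119426474 (score 10), and both were kept. In the 3′UTR, 3 peaks without a symbol had scores of 17, 11 and 10. The first and last of these, chr9:119435720-119435819 and chr9:119441805-119441894, touched an Sfpq peak and were dismissed, while chr9:119440695-119440734 between them was kept. Recruited let-7a peaks numbered 22 in the 3′UTR, rank 3 of 1956 genes, with scores of 10 to 28, and 16 of them touched an Sfpq peak. The siSfpq Ago2 list had 10 there with 20 to 215 reads.

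**Figure D3:**
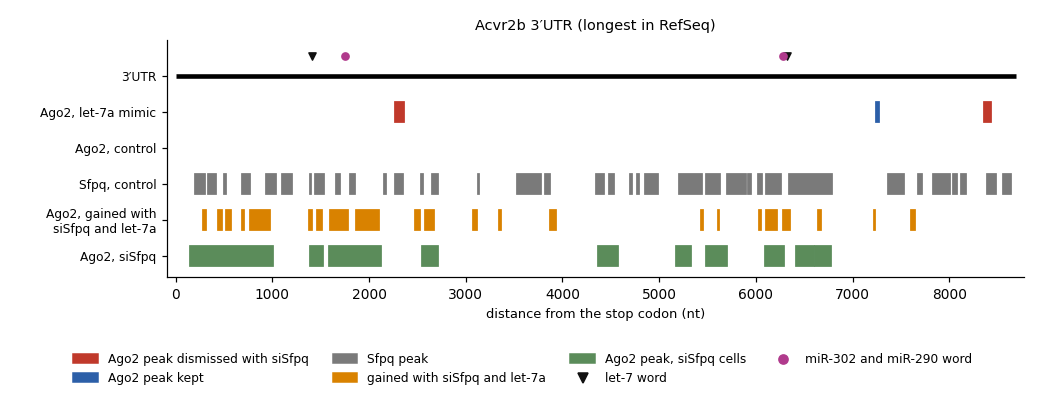
Listed peaks along the longest RefSeq 3′UTR of Acvr2b, by distance from the stop codon in nt (x axis) and list (rows), with seed matches above. The 36 Sfpq peaks (grey) run along the whole 8687 nt, and of the 3 Ago2-let-7a peaks the outer 2 (red) were dismissed.

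Smad2, the transducer, carried Sfpq alone in the control lists. It had 7 intronic and 9 3′UTR Sfpq peaks, with scores of 8 to 14 and a median of 9, where the median of the list was 11. They covered 8.54% of its 7018-nt 3′UTR, close to the median of 9.32% over genes with a 3′UTR Sfpq peak. No Ago2-let-7a, control Ago2 or recruited let-7a peak was listed, and the siSfpq Ago2 list gave 26 and 21 reads for its 2 peaks. Sfpq peaks on this transcript were therefore not accompanied by any listed gain of Ago2.

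Skil, the nuclear repressor, had the most Ago2 peaks of the 8 genes in the let-7a and control lists. Its 7 Ago2-let-7a peaks ranked 16 of 2455 genes, a rank shared by 13 of them, and its 6 in the 3′UTR ranked 3 of 758 by the lists' location label. Those kept lay together at chr3:31119460-31119534 (score 8), chr3:31119615-31119654 (21) and chr3:31119745-31119849 (19), 847 to 1236 nt after the stop codon. The dismissed ones lay further downstream, at chr3:31120590-31120739 (12), chr3:31121155-31121189 (18) and chr3:31122425-31122509 (10), 1977 to 3896 nt after it. A further peak in coding sequence, chr3:31097675-31097739 with a score of 21, was dismissed. All 4 dismissed peaks were classed as close, and Sfpq touched or adjoined the kept ones as well, so that proximity to Sfpq did not separate the outcomes.

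One control Ago2 peak of Skil had another outcome than the let-7a peaks it overlapped. The authors' second requirement leaves out let-7a peaks whose binding changed with siSfpq without the mimic. Such a difference can therefore be set by how the lists were made. Its 4 control peaks had 17, 10, 18 and 11 reads, and only the 18-read peak chr3:31119587-31119803 was dismissed. That peak overlapped 2 let-7a peaks that were kept and held the GCACTT of Skil at chr3:31119660-31119665. The dismissed let-7a peak nearest the 3′ end held the TACCTC at chr3:31122478-31122483. The full 8-letter let-7 match, at chr3:31122353-31122358, lay 67 nt upstream of that peak, within an Sfpq peak of score 28 and a recruited peak of score 16.

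Sfpq covered 62% of the 4310-nt Skil 3′UTR, percentile 97.1 of genes with a peak there. Its 16 peaks had scores of 10 to 58 with a median of 28, where the median of the list was 11, and the highest was chr3:31119760-31119839. Recruited let-7a peaks numbered 12 in the 3′UTR with scores of 12 to 48, rank 23 of 1956 genes by RefSeq 3′UTR, and 11 of them touched an Sfpq peak. Since Sfpq occupied much of this 3′UTR, contact alone says little, and 71% of the bases of recruited peaks lay in Sfpq peaks where 62% of the 3′UTR did. The siSfpq Ago2 list gave 6 peaks there with 43 to 416 reads, which covered 70.4% of the 3′UTR and touched all 6 let-7a peaks, dismissed or kept.

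**Figure D4:**
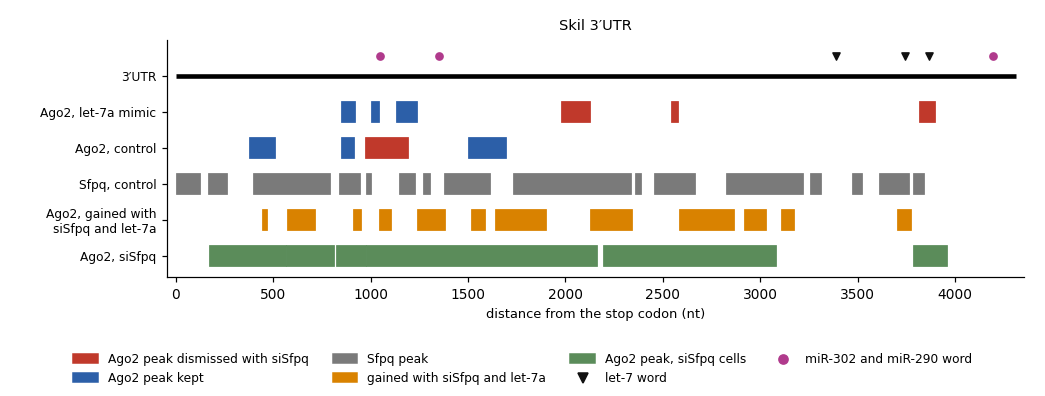
Listed peaks along the Skil 3′UTR, by distance from the stop codon in nt (x axis) and list (rows), with seed matches above. The 3 kept Ago2-let-7a peaks (blue) lie between 847 and 1236 nt and the 3 dismissed ones (red) between 1977 and 3896 nt, and Sfpq peaks (grey) run beside both.

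Over the 8 genes, loss of Ago2-let-7a peaks with siSfpq was not more frequent than elsewhere. Of the 16 peaks, 10 were dismissed, 62.5% with a 95% Wilson interval of 38.6 to 81.5, against 80.2% of all 4202. In 3′UTRs the counts were 8 of 11 (72.7%) against 72%. What differed was the class, since 9 of 16 were dismissed and close against 27% of all, and 8 of 11 in 3′UTRs against 40.5%, but 4 of those 9 were the Acvr1b peaks whose distance went against it. Without Acvr1b 45.5% were dismissed. In the control Ago2 list 1 of 8 was dismissed (12.5%) against 30.4% of all, and 1 of 5 against 53% in 3′UTRs. Intervals of this kind cover counting error only, and peaks of 1 gene share a transcript.

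The Ago2 peaks of the pathway lay near recruited peaks more often than the average peak. They also lay near Sfpq more often, which for the let-7a peaks rested on Skil. An Sfpq peak lay within 500 nt of 8 of the 16 Ago2-let-7a peaks (50% against 30.7% of all) and of 7 of the 8 control peaks (24.2% of all). In 3′UTRs, where most of these peaks were, the shares were closer, with 7 of 11 against 56% and 5 of 5 against 67.2%. By outcome, 5 of 10 dismissed and 3 of 6 kept peaks of the 8 genes were near Sfpq, against 24.5% and 55.6% over the whole list, and in 3′UTRs 4 of 8 dismissed and 3 of 3 kept peaks were, against 49.8% and 72.1%. The 8 let-7a peaks near Sfpq were the 7 of Skil and the Tgfbr1 peak, and no other gene had one. A recruited let-7a peak lay within 500 nt of 13 of 16 (24.5% of all), and in 3′UTRs of all 11 (50.7%). Without Skil it was 6 of 9. A recruited peak within 5 nt was found for 5 of 16 (7.66% of all), 2 of which overlapped it, and for the other 11 the nearest lay 6 to 14711 nt away. Dismissed and recruited let-7a peaks are opposite directions of the same comparison, so that for the 10 dismissed peaks little overlap was set by how the lists were made. Peaks with a score begin and end in steps of 5 nt.

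Most of the dismissed let-7a peaks were not bare of Ago2 in siSfpq cells without the mimic. A siSfpq Ago2 peak touched 8 of the 10 dismissed peaks, against 17.1% of all dismissed ones. In 3′UTRs it touched 7 of 8 dismissed peaks, against 33.5% of all dismissed ones there. It touched 13 of the 16 Ago2-let-7a peaks (24.4% of all) and 10 of 11 in 3′UTRs (42.7%), and touched all 8 control peaks (80.4% of all). The siSfpq Ago2 peaks of the 8 genes had a median length of 178 nt against 26 nt over that list, and longer peaks touch others more readily. Among the recruited let-7a peaks of the 8 genes, 42 of 51 lay within 500 nt of Sfpq (82.4% against 63.6% of all), 26 touched it (51% against 35.3%) and 9 touched a control Ago2 peak (17.6% against 4.86%). Skil alone, with much of its 3′UTR under Sfpq, gave 17 of the 42, 13 of the 26 and 5 of the 9.

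**Figure D5:**
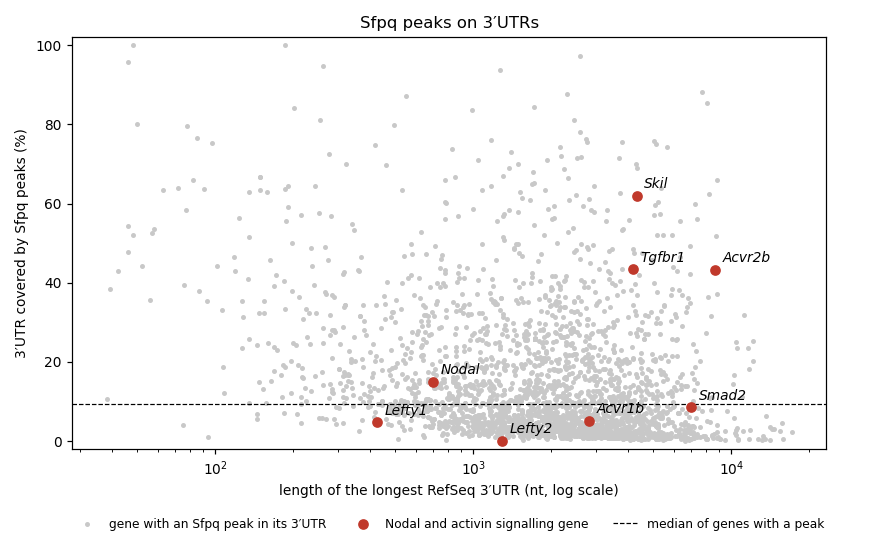
Share of the longest RefSeq 3′UTR covered by Sfpq peaks (y axis, percent) against its length (x axis, log scale, nt) for 2634 genes with a 3′UTR Sfpq peak (grey) and the 8 pathway genes (red), with the median of 9.32% as a dashed line. Skil, Tgfbr1 and Acvr2b stand at 62%, 43.4% and 43.2%, and Nodal, Lefty1, Acvr1b and Smad2 between 4.69% and 15%.

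Coverage by Sfpq divided the 8 genes. Skil, Tgfbr1 and Acvr2b stood above the 90th percentile of 37.6%, and Lefty2 had none. In Acvr1b, by contrast, 32.4% of the bases of recruited peaks lay in Sfpq peaks although Sfpq covered 5.14% of the 3′UTR, whereas in Acvr2b (33.3% against 43.2%) and Tgfbr1 (37.5% against 43.4%) recruited peaks overlapped Sfpq less than its coverage. Over 1330 genes the medians were 26.7% and 14.4%. The short words CTGT and CTGA occurred together 14.4 times per 1000 nt in the members' 3′UTR Sfpq peaks, against 13.6 and 14 in windows moved by 200 nt to either side, and TGTA occurred 9.98 times against 8.83 and 7.49. Over all 3′UTR Sfpq peaks the counts were 15.8 against 12.5 and 12.6, and 8.76 against 6.53 and 6.47. Of the members' 43 such peaks, 16 were on Skil and 15 on Tgfbr1, where Sfpq covered much of the 3′UTR. A moved window there could fall in the same or another Sfpq peak. The members' windows therefore cannot show whether the words were more frequent inside Sfpq peaks than outside them.

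Seed matches were scarce within the peaks. Of the members' 11 3′UTR Ago2-let-7a peaks 1 held TACCTC, the Skil site printed above, against 3.04% of all 987, and 1 held GCACTT, the Tgfbr1 site, against 4.96%. Of the 4 control 3′UTR peaks with a strand, 2 held GCACTT, those of Lefty1 and Skil, against 25% of all 320. In windows moved by 200 nt to higher and to lower coordinates, TACCTC was found in 1 and 1 of the 11 let-7a windows and GCACTT in 2 and 0. The members' matches were thus not consistently more frequent inside the let-7a peaks than beside them. GCACTT was found in 3 and 1 of the 4 control windows. The control peaks had a median length of 207 nt, so that a moved window could overlap its peak and hold the same site. The control windows therefore cannot show whether matches were more frequent inside those peaks. Among recruited 3′UTR peaks 2 of 21 held the full CTACCTCA, in Tgfbr1 and Skil, against 15 of 3675 (0.408%), and they were also the only 2 places where the 3′UTRs of the 8 genes held that word. With so few peaks these counts describe single sites.

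Other genes of TGF-beta superfamily signalling were bound as well. Of 49 further ligands, receptors, Smads, cofactors and inhibitors, 38 had a peak in at least 1 list. The Ago2-let-7a list held 22 peaks in 15 of them, of which 16 were dismissed (72.7% against 80.2% of all), none of them in a 3′UTR. Their only 3′UTR peaks with the mimic were on the type II receptor Bmpr2 (score 15), the repressor Ski, a relative of Skil (score 9), and the activin-binding inhibitor Fst (score 10), and none of the 3 was dismissed. The control Ago2 list held 7 peaks in 4 genes, of which 5 were dismissed (71.4% against 30.4% of all), including all 4 on the 3′UTR of Pmepa1, which dampens TGF-beta signalling, while the peak on the corepressor Tgif1 was kept. Of the 38 genes, 18 had Sfpq peaks (117), 16 recruited let-7a peaks (49) and 35 siSfpq Ago2 peaks. Of all symbols with a listed peak, 46.4% had an Sfpq, 29.8% a recruited let-7a and 82.7% a siSfpq Ago2 peak. For the Ago2-let-7a and control Ago2 lists these shares were 23% and 9.83%.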

How the data were processed

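Libraries of 15 CLIP experiments in P19 cells (5 groups of 3) were processed by the authors, who, per the labels, trimmed reads with cutadapt and mapped them with STAR and Bowtie2 to mm10 (versions not given in the sources used here). They merged replicates and deposited 11 peak lists with coordinates, a location label and a gene symbol. The deposited values were a read count per peak for the control and siSfpq Ago2 lists (at least 10 reads) and a score from the authors' dCLIP comparison for the others (threshold 7). Depth per library and expression of Sfpq, the targeted gene, were not in these lists, so that neither could be checked per sample. One list of Ago2 peaks carries a header that names both siRNAs, and was taken as siSfpq after the methods.

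Peaks were given to the 8 genes by symbol, and by RefSeq span (GRCm38) as an alternative. Distances were edge to edge on either strand, and Wilson intervals are at 95%. Touching meant 1 nt shared on the same strand, or on either where a peak had no strand. Percentiles are by rank within a list, with tied peaks at their mean rank. No test between conditions was possible. The functions were tested on simulated data. Python 3.11.15, pandas 2.3.3, scipy 1.17.1, pysam 0.24.0 and matplotlib 3.10.9 were used. All 8 genes were named, and of the other pathway genes those with an Ago2 peak labelled 3′UTR in the let-7a or control list. The members and lists were chosen with earlier results of these data known.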

Additional observations from a re-analysis of the deposited data

How the results depend on the processing

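Of 84 values recomputed under other settings, 63 stayed within the limit set for each and 21 moved. All were counts or shares of peaks, which have no direction, so that a reversal could not be seen. A share was called moved where it left the Wilson interval of its main value, which is wide for so few peaks. Of the 46 values that bear on the main counts, 8 moved. The dismissed share of control Ago2 peaks went from 12.5% to 0 of 2 at 20 reads or more and to 0 of 4 without Skil, the control share near Sfpq rose from 87.5% to 100% at 1000 nt, the share of Ago2-let-7a peaks touched by a recruited peak went from 12.5% to 0 at a Jaccard index of 0.1, and the let-7 match went from 9.09% of 3′UTR peaks to 0 with 7-nt words. Without Skil the Sfpq peaks fell from 89 to 58 and the recruited let-7a peaks from 51 to 33, and 31 Sfpq peaks had a score of 15 or more. Leaving out Skil or Acvr1b and using RefSeq 3′UTRs were chosen after seeing the data. No paired analysis was possible because replicates had been merged before peaks were called, and for that reason no replicate could be left out. Absence from a list can reflect a threshold or low coverage, which depth per library, unknown here, would be needed to judge.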
